A study of Mus musculus with 6 samples.

Results

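The SLC25 family of mitochondrial carriers was examined at the mRNA level in fully-grown oocytes (FGOs) of mice, taken at the germinal vesicle (GV) stage from wild type (WT) females and from females without LSM14B (Lsm14b-KO). The members are the genes whose symbol is Slc25a followed by a number, and 47 of the 24255 genes in the expression table fit that rule. The rule reads the symbol alone and no measured value. The question was how much of each carrier mRNA FGOs hold, and which of them differ when LSM14B, an RNA-binding protein of oocytes, is missing. Lsm14b-KO mice were homozygous for the Lsm14b tm1a(KOMP)Mbp allele, a knockout-first insertion with a reporter that is carried by every cell of the animal, on a C57BL/6J background. WT mice were kept on the same background, and the cross named for Lsm14b-KO mice, of homozygous males and heterozygous females, gives no WT littermates. All females, of both genotypes, had received 5 IU of PMSG, a gonadotropin that makes follicles grow, 46 h before collection, and their age is not given in the labels. RNA-Seq libraries were made from 20 oocytes each by the Smart-seq2 procedure, with 3 libraries per genotype and 6 in all. The labels do not say that the 3 libraries of a genotype came from separate animals, so the p-values cover the spread between libraries, which may be technical.

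Proteins of the SLC25 family sit mainly in the inner mitochondrial membrane, where each moves a small molecule such as a nucleotide, an amino acid, a carboxylic acid or a cofactor between matrix and cytosol. The ADP/ATP carriers bring ADP into the matrix and send out the ATP made there, and the phosphate carrier supplies the phosphate that ATP synthase needs. FGOs depend on mitochondrial ATP for meiotic maturation and use little glucose. They store the mRNAs that they will need after transcription has stopped.

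ADP/ATP carriers are told apart from the rest of the family by a signature of 3 arginines followed by 3 methionines. The coding bases of that signature are shown because the 3 ADP/ATP carrier genes, Slc25a5, Slc25a31 and Slc25a4, stood at very different mRNA levels in FGOs while coding for the same 6 residues. The capitals mark the 18 bases of the signature, and the 3 bases on each side are in lower case. The bases were read from GENCODE vM21 transcripts (GRCm38, the assembly that mm10 names).
Slc25a5: gttCGCCGTCGTATGATGATGcag
Slc25a31: gttAGAAGACGTATGATGATGcag
Slc25a4: gttCGTCGTAGGATGATGATGcag
The signature fills codons 235 to 240 of 298 in Slc25a5 and in Slc25a4, and codons 248 to 253 of 320 in Slc25a31. The methionine codons were the same in the 3 genes, and the set of arginine codons was not. Over the whole coding sequence, Slc25a4 and Slc25a5 shared 78.6% of bases, Slc25a5 and Slc25a31 69.1%, and Slc25a4 and Slc25a31 67.8%. The longest run of identical bases between any pair of them was 21 nt, so that reads 150 bp long can tell these 3 genes apart.

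Levels are given as FPKM, a measure per transcript length meant for comparing genes within a library. Whether long and short transcripts were captured alike within a library was not tested. Of the 47 members, 14 came to 1 FPKM or more in some library and were tested. Of the other 33, 12 were at 0 in all 6 libraries and 21 lay above 0 but below 1 FPKM. A 0 can be a failed estimate, as described below for Slc25a48. Only 8 members reached 1 FPKM in all 6 libraries, and 3 exceeded 10 FPKM in all 6. These 3 were Slc25a5, Slc25a17 and Slc25a31.

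**Figure D1:**
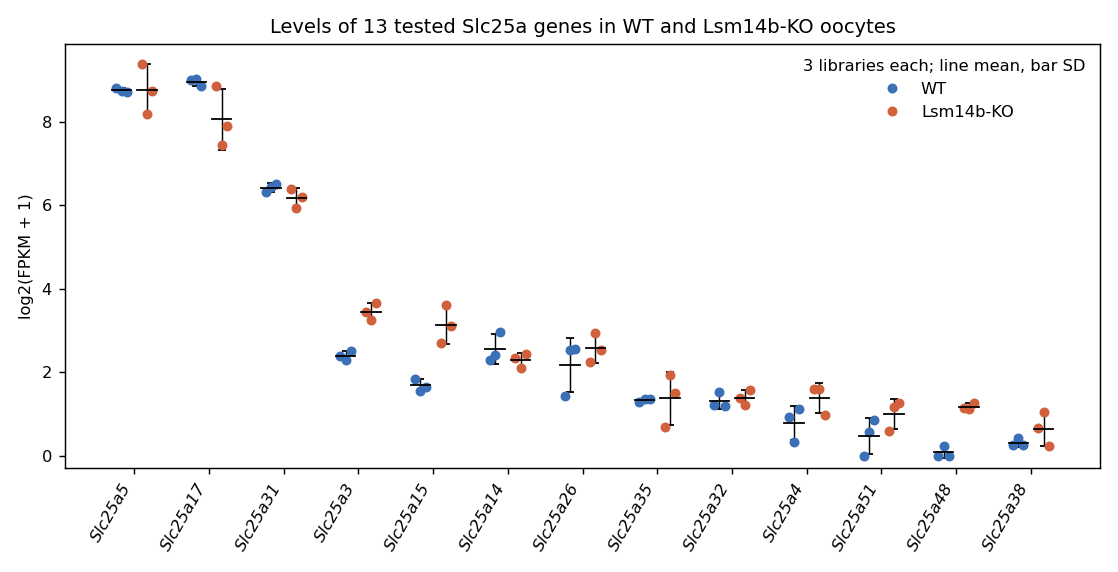
The vertical axis is log2(FPKM + 1) and the horizontal axis lists 13 of the tested Slc25a genes by mean level, with 1 point per library (blue WT, orange Lsm14b-KO), a line at the mean and bars of 1 SD. Slc25a5, Slc25a17 and Slc25a31 stand far above the others, and the points of the 2 genotypes are apart for Slc25a3, Slc25a15 and Slc25a48.

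Between genotypes, 3 of the 14 tested members were higher in Lsm14b-KO FGOs at an adjusted p under 0.05 and 0 were lower, by limma on log2(FPKM + 1) with Benjamini-Hochberg adjustment over all 6398 tested genes. Over all tested genes, 6.38% were higher and 15.2% lower by the same rule, and 21.6% passed in either direction. The share of members that passed in either direction, 3 of 14, was thus near the background. The 3 were Slc25a3, Slc25a15 and Slc25a48, of which Slc25a48 came into the test only through the Lsm14b-KO libraries, where it was high, so that its call is no support beyond its values. They were also the only members with an unadjusted p under 0.05 and the only tested members whose libraries did not overlap between genotypes, while 45% of all tested genes did not overlap. The fitted log2 difference was above 0 for 11 tested members and below 0 for 3, with a median of 0.28 against -0.08 over all tested genes. With every library scaled to the same FPKM sum it was above 0 for 13 and below 0 for 1, with a median of 0.64 against 0.40 over all tested genes. These counts and medians include Slc25a48, Slc25a51 and Slc25a38, which reached 1 FPKM only in Lsm14b-KO libraries, so that the filter favoured a value above 0. With at least 1 FPKM in at least 3 libraries, 12 members, Slc25a48 among them, had a median of 0.15 against -0.16 over all tested genes.

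**Figure D2:**
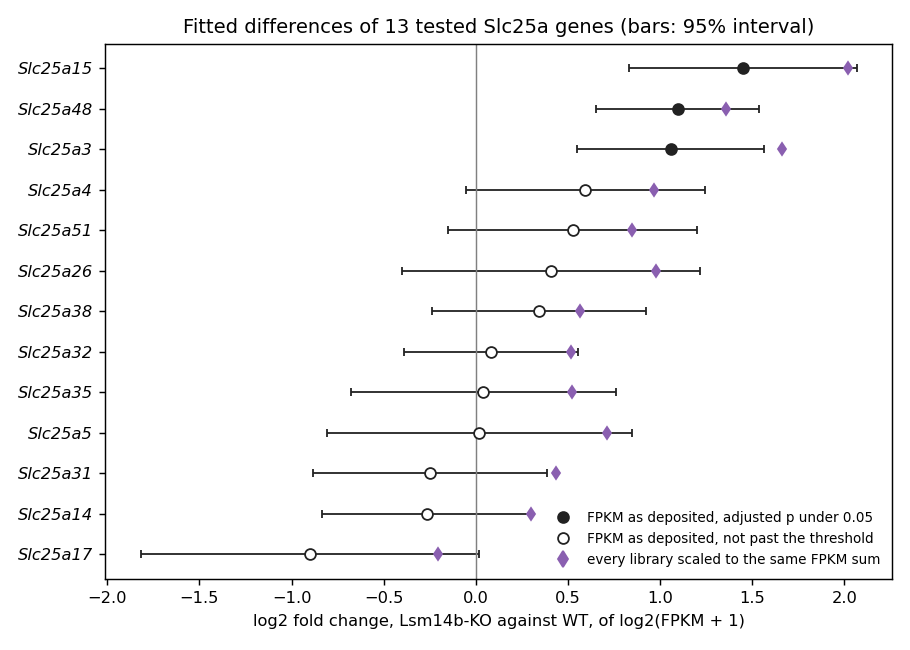
The horizontal axis is the log2 fold change of FPKM + 1, Lsm14b-KO against WT, for 13 of the tested Slc25a genes. Circles are the values as deposited with 95% intervals, filled where the adjusted p is under 0.05, and diamonds are the same differences with every library scaled to 1 common FPKM sum, all of them to the right of their circle.

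Some facts of the series touch all of these values. The FPKM of all genes summed to between 1141324 and 1244182 in the WT libraries and to 1029728, 564671 and 676656 in Lsm14b-KO replicates 1, 2 and 3, so a given FPKM is a larger part of the total in the last 2. Scaling all libraries to the same sum moved the median log2 difference of all genes up by 0.47, and the split of passing genes from 408 higher and 975 lower to 833 higher and 486 lower. The Lsm14b-KO libraries were not alike: across genes, replicate 1 correlated with WT at 0.952 to 0.954, with Lsm14b-KO replicate 3 at 0.96 and with Lsm14b-KO replicate 2 at 0.917, while replicate 2 correlated with WT at 0.867 to 0.890. Values without a library are therefore given where they matter. In WT, Lsm14b stood at 2.77, 3.98 and 1.72 FPKM, against 0, 0 and 0.102 FPKM in Lsm14b-KO (adjusted p of 0.0038 by limma), as the labels say. All 12 oocyte markers passed the filter and 2 of them, Nobox and Padi6, were higher in Lsm14b-KO. Their FPKM summed to between 44764 and 56826 in WT and between 30819 and 75083 in Lsm14b-KO libraries. The 14 markers of cumulus and granulosa cells, which surround the oocyte, summed to between 9.89 and 13.5 FPKM in WT and between 6.69 and 11.2 FPKM in Lsm14b-KO libraries. Among them Amh, Cyp11a1, Foxl2 and Inhba were at 0 in all libraries, 3 were tested, and Cyp19a1 was lower (10.1 ± 1.65 FPKM in WT and 4.75 ± 1.51 FPKM in Lsm14b-KO, SD, n = 3 each, adjusted p of 0.0426 by limma). Without Cyp19a1 the other 13 summed to 2.08, 1.63 and 1.31 FPKM in WT and to 4.23, 3.69 and 5.48 FPKM in Lsm14b-KO, with no overlap, and 3 of them, Fshr, Hsd3b1 and Kitl, were higher in every Lsm14b-KO library than in any WT library. The tested Fshr and Inha did not pass, with adjusted p of 0.0923 and 0.301 by limma. The part of these markers in the values of the carriers was not tested. The 8 red blood cell markers in the table were at 0. In such bulk libraries, fewer cells of a type and less RNA per cell cannot be told apart.

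The ADP/ATP carriers and the phosphate carrier act together in the supply of ATP. Slc25a5 (chr X, 36795651 to 36798807, plus strand), the ADP/ATP carrier of most tissues, stood at 449, 428 and 421 FPKM in WT and at 673, 293 and 427 FPKM in Lsm14b-KO. By WT mean it ranked 319 among all genes in the table. The Lsm14b-KO libraries fell on both sides of the WT range, and the log2 difference was 0.02 with a 95% interval from -0.81 to 0.85 (adjusted p of 0.971 by limma). Relative to the summed FPKM of each library the picture was another. In every 1000000 FPKM of the total, Slc25a5 took 361, 365 and 369 in WT and 654, 518 and 631 in Lsm14b-KO, with no overlap. That total was lower in every Lsm14b-KO library, and the share of all genes without overlap on this scale was not counted. With all libraries scaled to the same sum the log2 difference was 0.71 (adjusted p of 0.0423 by limma), beside a median of 0.40 over all genes at that scaling, and with quantile normalization it was 0.78 (adjusted p of 0.0382). Without Lsm14b-KO replicate 1 the difference of the deposited values was -0.29. A direction for Slc25a5 therefore rests on the scaling and on 1 library. GENCODE also holds 2 genes, Gm5529 and Gm5560, that match the Slc25a5 transcript at 95% identity or above over up to 900 nt, and since neither is in the table the Slc25a5 values are uncertain.

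Slc25a31 (chr 3, 40708855 to 40726096, plus strand), the ADP/ATP carrier of germ cells, was the third most abundant member. It was 79.2, 85.4 and 91.1 FPKM in WT and 83.3, 60.6 and 72.3 FPKM in Lsm14b-KO libraries, and the genotypes overlapped. The log2 difference was -0.25, with an interval from -0.88 to 0.39 and an adjusted p of 0.511 by limma. It turned to 0.44 with the common sum, 0.34 with quantile normalization and 0.13 with a correction for transcript length and GC content, without passing. The median over all genes tested in those settings was 0.40, 0.07 and 0.10. In every 1000000 FPKM of the total Slc25a31 took 63.7, 72.8 and 79.8 in WT and 80.9, 107 and 107 in Lsm14b-KO. The genotypes did not overlap there, but 80.9 lies just above 79.8. How many of all genes do not overlap at that scaling was not counted. Of the FPKM of the 3 ADP/ATP carriers, Slc25a31 made up 16.4 ± 1.39% in WT and 14.2 ± 3.06% in Lsm14b-KO (SD, n = 3 each).

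Slc25a4 (chr 8, 46206797 to 46211284, minus strand), the ADP/ATP carrier of heart and muscle, was near the lower limit of the tested range. Its values were 0.908, 0.262 and 1.16 FPKM in WT and 2.02, 2.02 and 0.960 FPKM in Lsm14b-KO libraries. Lsm14b-KO replicate 3 lay inside the WT range, and the log2 difference of 0.59 (interval from -0.05 to 1.24) did not pass, with an adjusted p of 0.152 by limma.

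Slc25a3 (chr 10, 91116574 to 91124059, minus strand), which carries phosphate and also copper into the matrix, was one of the 3 members that rose. It was 4.25, 3.88 and 4.68 FPKM in WT and 9.83, 8.52 and 11.7 FPKM in Lsm14b-KO libraries. Every Lsm14b-KO library was above every WT library, and the Lsm14b-KO mean was 235% of the WT mean. The log2 difference was 1.06 with an SE of 0.22, an interval from 0.55 to 1.56 and an adjusted p of 0.0162 by limma. The difference kept its direction in 15 of 15 alternatives and passed in 11. The adjusted p was 0.0795, 0.0865 and 0.0602 without WT replicate 1, 2 or 3, and 0.0818 without Lsm14b-KO replicate 3, with log2 differences from 0.95 to 1.11. Slc25a3 mRNA was low beside the most abundant ADP/ATP carrier in both genotypes: its FPKM was 0.948, 0.907 and 1.11% of that of Slc25a5 in WT and 1.46, 2.91 and 2.75% in Lsm14b-KO. The ratio did not overlap between genotypes, and its two-sided exact permutation p of 0.1 is the smallest that 3 against 3 libraries can give. It was formed after the values were seen and from the same Slc25a3 values as the call, so it is a description and no further support. The uncertainty of Slc25a5 applies to it.

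The ATP-Mg/phosphate carriers, which adjust the adenine nucleotide pool of the matrix, were all below the filter. Of those under calcium control, Slc25a24 was at 0 throughout, and Slc25a23 and Slc25a25 did not exceed 0.122 FPKM. Slc25a41, which lacks calcium control, and the paralog Slc25a54 were also at 0.

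Of the 9 amino acid carriers, 2 were tested and 1 rose. Slc25a15 (chr 8, 22375551 to 22398597, minus strand) exchanges ornithine and citrulline and is best known as a step of the urea cycle in liver. It was 2.60, 1.94 and 2.15 FPKM in WT and 5.52, 11.1 and 7.56 FPKM in Lsm14b-KO libraries, with a clear gap between the genotypes. The Lsm14b-KO mean was 362% of the WT mean, and the log2 difference was 1.45 with an SE of 0.27, an interval from 0.83 to 2.07 and an adjusted p of 0.0109 by limma. By WT mean Slc25a15 ranked 3517 in the table, and by Lsm14b-KO mean 1937. It passed in 12 of 15 alternatives. The adjusted p was 0.0648 without WT replicate 2, 0.0591 without WT replicate 3 and 0.0566 without Lsm14b-KO replicate 3, with log2 differences from 1.38 to 1.47.

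Slc25a38, the glycine carrier that feeds haem synthesis, was tested through 1 library alone, Lsm14b-KO replicate 2 at 1.08 FPKM, and the other 5 lay between 0.175 and 0.574 FPKM. Its log2 difference of 0.34 did not pass (adjusted p of 0.327 by limma). The aspartate/glutamate carriers Slc25a12 and Slc25a13 of the malate-aspartate shuttle, the glutamate carrier Slc25a22 and the branched-chain amino acid carrier Slc25a44 stayed below 1 FPKM, with the highest value 0.932 FPKM for Slc25a44. The glutamate carrier Slc25a18, the ornithine carrier Slc25a2 and the basic amino acid carrier Slc25a29 were at 0. Slc25a2 shares its deposited locus with 62 other genes, so its 0 is uncertain.

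None of the 5 carriers of carboxylates and acylcarnitine reached the filter. These are the citrate carrier Slc25a1, the dicarboxylate carrier Slc25a10, the oxoglutarate/malate carrier Slc25a11, the carnitine/acylcarnitine carrier Slc25a20, which lets long-chain fatty acids into the matrix, and the oxodicarboxylate carrier Slc25a21. Their highest value in any library was 0.861 FPKM, in Slc25a1, and their FPKM summed to between 0.721 and 1.18 in WT and between 0.868 and 1.46 in Lsm14b-KO libraries.

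The carriers of cofactors, nucleotides and metals held the most abundant member in WT FGOs. Slc25a17 (chr 15, 81318911 to 81360812, minus strand) is not mitochondrial but sits in the membrane of peroxisomes, where it carries coenzyme A, FAD and NAD. It was 515, 519 and 461 FPKM in WT and 464, 172 and 237 FPKM in Lsm14b-KO libraries. Lsm14b-KO replicates 2 and 3 were far below WT, while replicate 1 lay just above the lowest WT library. The WT mean was 498 ± 32.1 FPKM and the Lsm14b-KO mean 291 ± 153 FPKM (SD, n = 3 each), and the log2 difference of -0.90 (interval from -1.82 to 0.02) did not pass, with an adjusted p of 0.133 by limma. With Lsm14b-KO replicate 1 left out, the difference came to -1.30 (adjusted p of 0.0035). It shrank to -0.21 with the common FPKM sum (adjusted p of 0.487), to -0.13 with quantile normalization (adjusted p of 0.707) and to -0.57 with the length and GC correction (adjusted p of 0.179). In every 1000000 FPKM of a library's total, Slc25a17 took 414, 443 and 404 in WT and 450, 305 and 351 in Lsm14b-KO, again with replicate 1 apart from the other Lsm14b-KO libraries.

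No other tested member of this group passed. Slc25a26, which brings S-adenosylmethionine into mitochondria, ranged from 1.68 to 4.86 FPKM in WT and from 3.77 to 6.64 FPKM in Lsm14b-KO (log2 difference of 0.41, adjusted p of 0.397 by limma). This gene overlaps Lrig1 on the other strand, and since counting by strand is not stated, reads of the 2 genes may not have been told apart. Slc25a32, a folate and FAD carrier, ranged from 1.28 to 1.89 FPKM in WT and from 1.30 to 1.99 FPKM in Lsm14b-KO. Slc25a51, the NAD carrier of mitochondria, was listed at 0, 0.477 and 0.822 FPKM in WT and at 0.500, 1.24 and 1.39 FPKM in Lsm14b-KO, with overlap and an adjusted p of 0.210 by limma. It came into the test only through Lsm14b-KO libraries. The iron importers Slc25a28 and Slc25a37, the glutathione carriers Slc25a39 and Slc25a40, the pyrimidine nucleotide carriers Slc25a33 and Slc25a36, and the coenzyme A-linked Slc25a16 and Slc25a42 did not exceed 0.884 FPKM, and Slc25a37 and Slc25a42 were at 0.

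The remaining members are uncoupling protein-like carriers, proteins of the outer membrane and carriers whose substrate is not named here. Slc25a48 (chr 13, 56438355 to 56474239, plus strand) was 0, 0.178 and 0 FPKM in WT and 1.22, 1.16 and 1.40 FPKM in Lsm14b-KO libraries. All 3 Lsm14b-KO libraries were close to each other and above the WT libraries. The log2 difference of FPKM + 1 was 1.10 with an SE of 0.19 and an adjusted p of 0.00883 by limma. A ratio of the means is not given, because 2 WT libraries were listed at 0, and a 0 in this table can be a failed estimate: 13 of the 77 genes for cytosolic ribosomal proteins had a 0 in some library. Slc25a48 passed the filter only through the Lsm14b-KO libraries, which favours a higher Lsm14b-KO value. Its p therefore describes these values and supports nothing further. Without Lsm14b-KO replicate 3 the difference did not pass (log2 difference of 1.05, adjusted p of 0.0552).

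Slc25a14, an uncoupling protein-like carrier, ranged from 3.89 to 6.87 FPKM in WT and from 3.32 to 4.43 FPKM in Lsm14b-KO (log2 difference of -0.26, adjusted p of 0.435 by limma, and 0.30 with the common sum). Slc25a35 ranged from 1.46 to 1.56 FPKM in WT and from 0.606 to 2.82 FPKM in Lsm14b-KO, so that the spread among Lsm14b-KO libraries enclosed the WT values. It overlaps Rangrf on the other strand, with the same limit as above. Slc25a27 and Slc25a30, related to the uncoupling proteins, and Slc25a46, an outer membrane protein that shapes mitochondria, stayed at or below 0.359 FPKM, as did Slc25a53. Slc25a34, Slc25a43, Slc25a45 and Slc25a47 were at 0.

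Low values depend on depth. The steps between low FPKM values give the divisor of each library, which sets how small an FPKM 1 fragment is worth. Relative to WT replicate 1 it was 1, 1.14 and 1.03 in WT, and 1.33, 1.95 and 2.17 in Lsm14b-KO libraries. This divisor equals relative depth only where FPKM were not scaled between libraries, which is not stated, and the numbers of reads are not given. Members above 0 numbered 25, 27 and 26 in WT and 27, 32 and 32 in Lsm14b-KO libraries, and 11 members were above 0 in more Lsm14b-KO than WT libraries against 2 the other way, which is 31.4 and 5.71% of the 35 members above 0 in some library. Over all 14325 such genes the shares were 26.2 and 12.1%. The part of depth in these counts was not tested.

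The make-up of the carrier mRNA differed between genotypes. Slc25a17, Slc25a5 and Slc25a31 together held nearly all of the FPKM of the 47 members, and the other 44 summed to 21.3, 23.7 and 30.2 FPKM in WT and to 34.6, 47.1 and 42.8 FPKM in Lsm14b-KO. In WT, Slc25a17 took the largest part in each library with 48.4, 49.2 and 46%, and Slc25a5 followed with 42.2, 40.5 and 41.9%. In Lsm14b-KO the order was turned in every library, with 53.7, 51.1 and 54.8% for Slc25a5 and 36.9, 30.1 and 30.4% for Slc25a17. Such shares do not depend on how the libraries are scaled to each other.

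**Figure D3:**
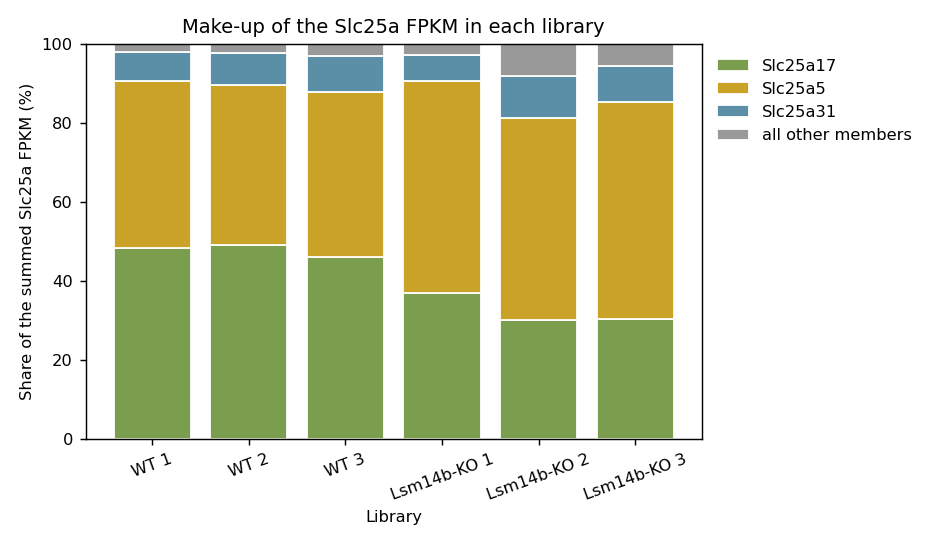
Each bar is 1 library and the vertical axis is the share, in percent, of the summed FPKM of the 47 Slc25a genes held by Slc25a17, Slc25a5, Slc25a31 and the other 44 members. Slc25a17 is the largest part in the 3 WT libraries and Slc25a5 in the 3 Lsm14b-KO libraries.

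The ratio of Slc25a17 to Slc25a5 was 1.15, 1.21 and 1.10 in WT and 0.688, 0.589 and 0.555 in Lsm14b-KO. In this measure Lsm14b-KO replicate 1 lay with the other Lsm14b-KO libraries. The genotypes did not overlap, and the two-sided exact permutation p was 0.1, the smallest that the design allows. This ratio was chosen after the values were seen and is a description. It shows that the 2 mRNAs differed unequally between genotypes and not which of them changed, and the uncertainty of Slc25a5 applies to it. By contrast, the ratio of Slc25a31 to Slc25a5 was 0.176, 0.200 and 0.216 in WT and 0.124, 0.207 and 0.169 in Lsm14b-KO, with overlap (two-sided exact permutation p of 0.4). As a whole, the members held 0.0855 to 0.0901% of all FPKM in WT and 0.101 to 0.122% in Lsm14b-KO libraries. That share is taken of a total that was lower in every Lsm14b-KO library. In FPKM as deposited the members summed to 1064, 1056 and 1004 in WT and to 1255, 573 and 779 in Lsm14b-KO, with overlap.

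**Figure D4:**
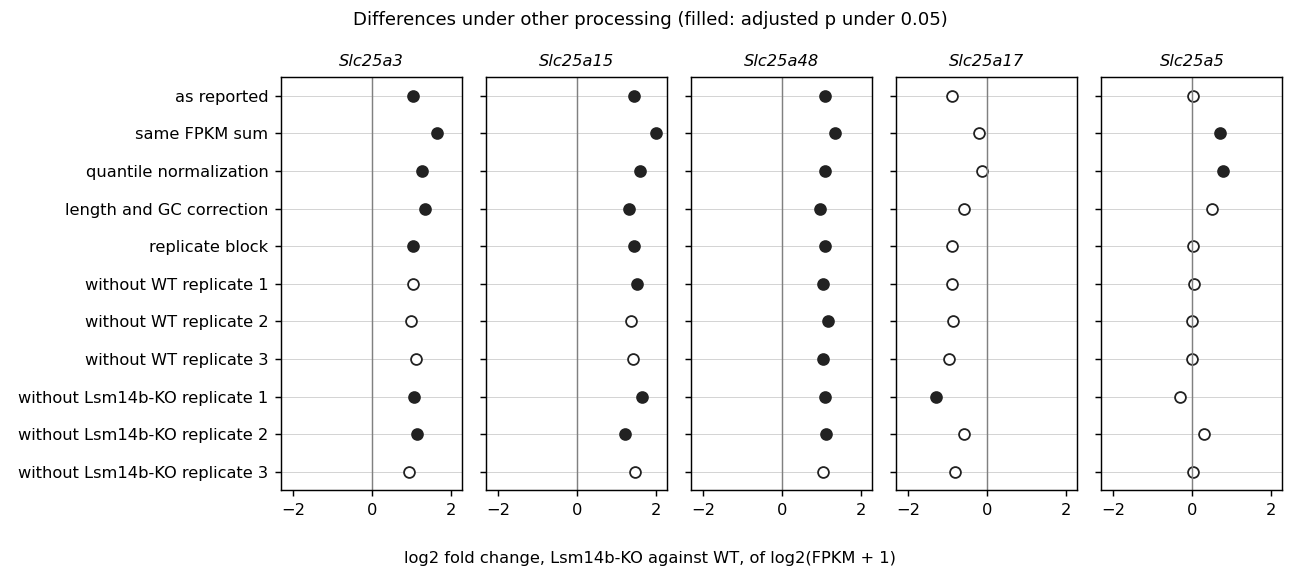
For Slc25a3, Slc25a15, Slc25a48, Slc25a17 and Slc25a5, the horizontal axis is the log2 fold change of FPKM + 1 (Lsm14b-KO against WT) under the settings on the vertical axis, filled where the adjusted p is under 0.05. Slc25a3, Slc25a15 and Slc25a48 stay to the right of 0 throughout, Slc25a17 is filled only without Lsm14b-KO replicate 1, and Slc25a5 only with the common sum and quantile normalization.

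Other proteins that move metabolites across mitochondrial membranes, and those that bring carriers to the inner membrane, were counted in the same way. The table holds 39 such genes, of which 20 were tested, and 0 were higher and 5 lower in Lsm14b-KO, beside 6.38% higher and 15.2% lower over all tested genes. The difference between this count and that of the Slc25a members was not tested. Among 3 outer membrane channels 1 was lower: Vdac2, a pore for ATP and other metabolites, was 344, 360 and 261 FPKM in WT and 43.3, 13.5 and 19.6 FPKM in Lsm14b-KO (log2 difference of -3.76, SE of 0.44, adjusted p of 0.00219 by limma). In the path that brings carrier precursors through the intermembrane space, 6 of 10 genes were tested and 3 were lower. Timm13 fell from 40.0, 41.4 and 44.8 FPKM to 10.3, 6.52 and 5.54 FPKM (log2 difference of -2.39, adjusted p of 0.0022 by limma). Timm10b, with a log2 difference of -1.81 (adjusted p of 0.0278), and Timm8b, with -1.60 (adjusted p of 0.0462), code for other small proteins of the intermembrane space. The other tested genes of the path, Timm9, Timm10 and Timm8a1, were fitted lower (-0.85, -1.67 and -1.24) and did not pass. Their adjusted p was 0.145, 0.0546 and 0.0579 by limma. Of 21 other inner membrane transporters 11 were tested and 1 was lower, the pyruvate carrier subunit Mpc1 with a log2 difference of -1.56 (adjusted p of 0.0304). Vdac2 and Timm13 passed in 15 of 15 alternatives, Timm10b in 9, Mpc1 in 8 and Timm8b in 5. Timm10b, Timm8b and Mpc1 passed without Lsm14b-KO replicate 1 but not without any one of the other 5 libraries, where the adjusted p ran from 0.0507 for Timm10b without Lsm14b-KO replicate 2 to 0.156 for Timm8b without WT replicate 1.

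The 5 relatives of the family under other symbols gave no test, since Ucp1, Ucp2 and Ucp3 were at 0 and Mtch1 and Mtch2 were below the filter. ATP synthase uses the ADP and phosphate that the carriers deliver. Of 16 genes for its subunits and its inhibitor Atpif1, 0 were higher and 1 was lower, which is below the 15.2% of all tested genes that were lower. The lower one was Atp5g2, with 15.2 ± 3.81 FPKM in WT and 7.45 ± 1.79 FPKM in Lsm14b-KO (SD, n = 3 each, log2 difference of -0.94, adjusted p of 0.0487 by limma). The median log2 difference was -0.49 over the 16 ATP synthase genes, -0.63 over the outer membrane channels, -1.64 over the import path and 0.20 over the other inner membrane transporters, beside 0.28 over the tested Slc25a members. With the common FPKM sum these medians became 0.18, 0.06, -0.97 and 0.52, beside 0.64, so that the first 2 changed sign. Transcripts of the tested members ran from 1240 to 5905 nt, and across these 14 genes, which share the same 6 libraries, length and log2 difference had a Spearman rho of 0.389. With the correction for length and GC content Slc25a3, Slc25a15 and Slc25a48 still passed, and the median gene moved up by 0.18.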

How the data were processed

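RNA-Seq values of 6 libraries were used, 3 WT and 3 Lsm14b-KO, grouped by the titles and genotype labels. Per the submitters' processing notes and the methods of the study, reads were aligned to mm10 with TopHat2 2.0.13 and the authors computed the deposited FPKM with Cufflinks 2.2.1. Cuffnorm and Cuffdiff are also named there. The annotation, the strand setting and the numbers of reads are not given in the sources used here, and 2 different library kits are named. The table also holds the authors' own fold changes, p and q of their comparison, which were not used. FPKM are not counts, so no count model was fitted, and precision is limited by 3 libraries a group.

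All genes that came to 1 FPKM in any library (6398 of 24255) were tested as log2(FPKM + 1) with limma 3.58.1 in R 4.3.3 (lmFit, eBayes with trend, two-sided), with Benjamini-Hochberg adjustment over all of them and a threshold of 0.05. A difference on this scale understates the change of low genes. The fit was tested on simulated data. The relative divisor of a library was the commonest ratio between libraries of very low values, each taken as worth 1 fragment. Alternatives were pseudocounts of 0.1 and 0.01, no filter, at least 1 FPKM in at least 3 libraries, a common FPKM sum, quantile normalization, a loess correction (span 0.5) for length and GC content (known for 98.8% of tested genes), no trend, the replicate block, and leaving out each library. Ratios of single members were compared by the exact permutation test over libraries. Coordinates, lengths and coding sequences came from GENCODE vM21, and near-identical genes from blastn 2.17.0 (at least 95% identity over at least 200 nt).

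The family of members and the lists were chosen with earlier results of these data known. Tested members are named, except for 1 result that is not reported here. Values of every library are given for members past the threshold, for Slc25a3, Slc25a4, Slc25a5 and Slc25a31, and for the 5 highest means. Of the other lists (inner membrane transporters, outer membrane channels, carrier import path, relatives under other symbols, ATP synthase and cell type markers) the genes past the threshold are named. The values of Slc25a51 and Slc25a48, the ratios, the shares and sums per library, and the import path genes that did not pass were added after the values were seen.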

Additional observations from a re-analysis of the deposited data

How the results depend on the processing

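Slc25a3, Slc25a15 and Slc25a48 were the members past the threshold under both other pseudocounts, no filter, the stricter filter, the length and GC correction and no trend. With the common FPKM sum and with quantile normalization Slc25a5 joined them, making 4. Leaving out 1 library gave 0 to 4 members, all of them higher except Slc25a17 without Lsm14b-KO replicate 1, so the higher ones numbered 0 to 3: 0 without Lsm14b-KO replicate 3, 1 without WT replicate 2 or 3, and 2 without WT replicate 1. Over all genes the count of 1383 became 720 with no filter, when 14325 genes were tested, and 315 to 2898 without 1 library, highest without Lsm14b-KO replicate 1. The 5 other transporters became 2 with no filter and 2 to 11 without 1 library. The split of passing genes was 408 higher and 975 lower as reported, 540 and 735 with quantile normalization, and 648 and 787 with the length and GC correction. Directions turned for members that did not pass: Slc25a31 was 0.44 with the common sum, 0.34 with quantile normalization and 0.13 with the length and GC correction, and Slc25a14 was 0.30 with the common sum. The median over all tested genes was 0.40 with the common sum, 0.07 with quantile normalization and 0.10 with the length and GC correction. Slc25a35 (0.04 as reported) was -0.051 and -0.030 with pseudocounts of 0.01 and 0.1, and ran from -0.24 to 0.39 without 1 library, below 0 without Lsm14b-KO replicate 2 or 3. Slc25a32 (0.08 as reported) was -0.038 with the length and GC correction and ran from -0.012 (without Lsm14b-KO replicate 3) upward without 1 library, and Slc25a5 ran from -0.29 (without Lsm14b-KO replicate 1) to 0.31 (without Lsm14b-KO replicate 2). The cause of these changes was not tested. Deviations of same-numbered libraries correlated at 0.19, -0.128 and 0.0179, so the numbers were not taken as pairs. With the replicate block 3 members, the same ones, and 1244 genes passed.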
